A study of Mus musculus with 19 samples.

Results

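The erythroid gene Alas2 separated the aortas of this series over a wide range, and 12 of the 19 libraries, the 6 with the highest and the 6 with the lowest Alas2 level, are described here. The level used to choose them was the unstranded count of Alas2 as CPM, that is, scaled to the total count in genes of its library. Because the sets were chosen on a measured value, every difference between them is given as a description, without a test. Genes were called higher or lower in the high set where the 6 and 6 libraries did not overlap and the means differed at least 2-fold. All 4 adult globin genes measured and the red cell membrane gene Slc4a1 were higher in the high set, with differences of 3.80 to 4.75 on the log2 scale. Of the 12 other genes of heme synthesis, 7 erythroblast regulators and 148 white cell genes, 0 were called higher, beside 0.494% of all genes, a share at which lists of this size hold few calls or none.

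Each library came from the abdominal aorta of one male Apoe-/- mouse on the C57Bl/6J background, a strain that lacks apolipoprotein E and is prone to high cholesterol. All mice, controls included, were infused with angiotensin II (AngII) from an osmotic pump, which induces abdominal aortic aneurysm in this strain. The D-3 IR group (7 libraries) received 1 Gy of X-rays to the whole body 3 days before the start of AngII, the D+1 IR group (7 libraries) received it 1 day after the start, and the control group (5 libraries) was anaesthetised without irradiation. The study had an early end point for work on tissue and a later one for survival, and the sources used here do not state from which of them these libraries came. No aorta without AngII is among the libraries, and so no value stands for a healthy vessel.

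Alas2 encodes the erythroid form of 5-aminolevulinate synthase, the first and rate-limiting enzyme of heme synthesis in red cell precursors. Erythroblasts of the marrow and spleen make it together with the globins and the proteins of the red cell membrane, and reticulocytes, the youngest circulating red cells, still carry these messages after they have lost their nucleus. Erythroblast regulators such as Gata1 and Klf1 switch these genes on and are largely lost before the cell enters the blood. In a bulk sample of a vessel, fewer cells of a type and less RNA per cell cannot be told apart.

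The libraries held 25839001 to 97083681 counts in genes (median 39641963). Globin genes took 0.336 to 0.957% of counts in the high set and 0.00979 to 0.126% in the low set. Mitochondrial genes took 7.27 to 15.2% and 4.49 to 22.9%, ranges that overlapped. D+1 IR 1, 2 and 3 carry another number in their file names than the other 16 libraries. D+1 IR 2 and 3 belong to the low set, and what the number stands for is not given in the sources used here. Other levels below are CPM after scaling by the trimmed mean of M values (TMM), and a difference is the mean log2 CPM of the high set minus that of the low set, with its standard error (SE).

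The upstream sequence of Alas2 and of genes that followed it is shown first, since a shared short motif can be read in it directly. GATA1 binds the letters GATA preceded by A or T and followed by A or G, and KLF1 binds CCACACCC, and both were searched on both strands of the 250 bases before each RefSeq start (GRCm38.p6). Capitals mark the searched letters. The stretches below stop where the GENCODE gene begins, and run 5′ to 3′ on the strand of the gene. They are Alas2 (chrX:150547167-150547374, plus strand), the globins Hba-a1 (chr11:32283422-32283510, plus strand) and Hbb-bs (chr7:103828097-103828178, minus strand), and the 2 genes outside the erythroid lists whose levels ranked most like Alas2, Gm10371 (chr14:47116162-47116411, minus strand) and Apol11b (chr15:77643287-77643536, minus strand).
Alas2: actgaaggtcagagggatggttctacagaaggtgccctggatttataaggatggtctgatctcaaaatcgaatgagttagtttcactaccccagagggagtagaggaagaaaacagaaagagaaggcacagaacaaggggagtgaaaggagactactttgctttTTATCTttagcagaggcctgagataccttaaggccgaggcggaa
Hba-a1: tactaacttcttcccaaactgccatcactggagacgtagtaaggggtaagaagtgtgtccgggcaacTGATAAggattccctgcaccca
Hbb-bs: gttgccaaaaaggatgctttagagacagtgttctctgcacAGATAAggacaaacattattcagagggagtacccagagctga
Gm10371: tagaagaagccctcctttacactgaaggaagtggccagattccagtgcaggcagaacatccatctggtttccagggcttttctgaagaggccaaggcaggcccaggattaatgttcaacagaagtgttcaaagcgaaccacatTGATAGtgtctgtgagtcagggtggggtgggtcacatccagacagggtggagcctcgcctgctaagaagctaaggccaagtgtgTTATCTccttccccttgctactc
Apol11b: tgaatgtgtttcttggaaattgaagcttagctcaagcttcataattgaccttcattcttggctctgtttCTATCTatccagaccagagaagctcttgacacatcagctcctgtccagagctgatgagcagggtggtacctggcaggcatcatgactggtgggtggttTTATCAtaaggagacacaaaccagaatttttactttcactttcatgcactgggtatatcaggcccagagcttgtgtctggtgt

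A GATA motif lay on the minus strand 86 to 81 bases before the Alas2 start, read there as TTATCT. Hba-a1 held TGATAA at 183 to 178 bases, and Hbb-bs held AGATAA at 210 to 205 bases and CCACACCC at 93 to 86 bases, the latter inside the longer GENCODE gene and therefore not printed. Among Alas2 and the 14 erythroid genes called higher, 12 had a RefSeq window and 8 of these (66.7%) held a GATA motif. The share was 18% of the 12511 compared genes with a window, 27.1% of all 27025 windows, and 13 of 50 (26%) for the other genes called higher. CCACACCC was found in 1 of the 12 windows (8.33%), in 3.29% of the compared genes and in 0 of the 50 others. Hbb-bt, Bpgm, Tspo2 and Tent5c were called higher without a GATA motif in this window, which says only that these letters are not in it.

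Alas2 lies on chromosome X (150547375 to 150570638, plus strand, GRCm38, GENCODE M21) and overlaps Apex2 and Mir3620 on the other strand. D-3 IR 16 had the highest level, 337 CPM (10577 counts, exact binomial 95% interval 331 to 343 CPM), followed by control 6 with 161, D-3 IR 12 with 122, control 5 with 106, D-3 IR 13 with 101 and D-3 IR 11 with 96.3 CPM. The low set began at D+1 IR 2 with 17.4 CPM and went down through D+1 IR 17 with 10.4, D+1 IR 3 with 9.17, D+1 IR 19 with 6.99 and D+1 IR 20 with 4.15 to control 8 with 1.14 CPM (33 counts, interval 0.785 to 1.60 CPM). The intervals cover counting error only. Level fell 296-fold from the first library to the last. The nearest libraries outside the sets were D-3 IR 10 at 86.2 CPM, close below D-3 IR 11, and D+1 IR 1 at 20.7 CPM, close above D+1 IR 2, so neither boundary falls in a gap.

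The high set held 4 D-3 IR and 2 control libraries, and the low set 5 D+1 IR libraries and 1 control library. The 7 libraries in between were 3 D-3 IR, 2 D+1 IR and 2 control libraries. All 7 D-3 IR libraries (32.4 to 337 CPM, median 96.3) lay above all 7 D+1 IR libraries (4.15 to 25.4 CPM, median 10.4). The 5 controls spanned 1.14 to 161 CPM (median 78.0) and supplied members to both ends of the order. A difference between the sets is thus also largely a difference between the irradiation schedules, and the 2 cannot be told apart within these 12 libraries.

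Among 17616 genes compared without Alas2, 87 were called higher in the high set (0.494%) and 24 lower (0.136%), and 114 (0.647%) and 77 (0.437%) did not overlap when no fold was asked for. Leaving out 1 library moved these counts to as many as 277 higher (without D+1 IR 20) and 190 lower (without D-3 IR 12). The median difference over all genes was -0.04. Of 70 erythroid genes in the files other than Alas2, 63 passed the filter on low counts, 14 were called higher and 0 lower. These 14 made up 16.1% of the genes called higher. The other 49 erythroid genes overlapped between the sets, 20 of them with a positive difference, and the median difference of the 63 was 0.28. The sum of the erythroid genes was 5488 to 12796 CPM (median 7837) in the high set and 2136 to 4718 CPM (median 2448) in the low set, with no overlap.

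**Figure D1:**
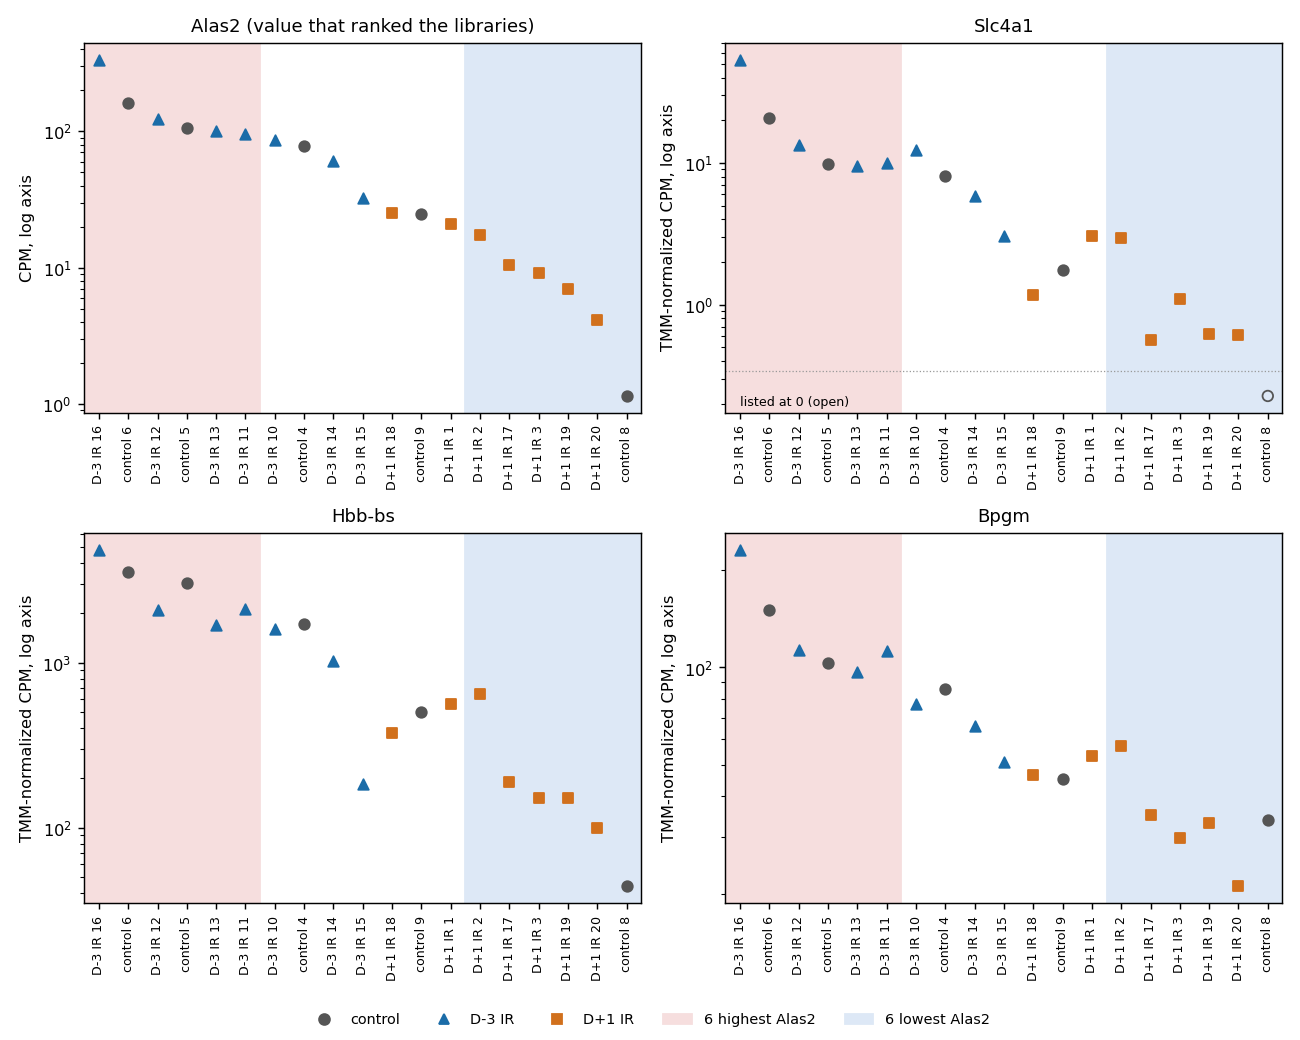
Level (CPM, log axis) of Alas2, Slc4a1, Hbb-bs and Bpgm in each of the 19 libraries, ordered from the highest to the lowest Alas2 CPM, 1 point per library, with colour and shape by study group, shading for the high and low sets and an open point for a value of 0. Slc4a1 fell from 53.7 in D-3 IR 16 to 0 in control 8, and Hbb-bs from 4817 to 44.1 CPM.

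The adult globins form the oxygen carrier and were the most abundant genes that followed Alas2. Hbb-bs, a beta-globin gene on chromosome 7 (103826534 to 103828096, minus strand), stood at 4817, 3545, 2083, 3034, 1695 and 2107 CPM in the high set in the order of Alas2, and at 642, 188, 152, 151, 99.4 and 44.1 CPM in the low set. The difference was 4.15 (SE 0.56), a ratio of means of 13.5. The lowest high library thus lay well above D+1 IR 2, the highest of the low set. Its neighbour Hbb-bt ranged from 362 to 1108 CPM in the high and from 5.76 to 124 CPM in the low libraries (4.41, SE 0.62).

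The alpha-globin genes on chromosome 11 behaved alike. Hba-a1 (32283511 to 32284465, plus strand) was at 827 to 2401 CPM (median 1319) against 21.3 to 469 CPM (median 89.6), a difference of 3.80 (SE 0.63). Hba-a2 was at 637 to 1690 CPM against 16.1 to 342 CPM (3.87, SE 0.62). Hba-a1 and Hba-a2, like Hbb-bs and Hbb-bt, are near-identical copies, and reads that mapped to more than one place were not counted, so how the counts divide within each pair is uncertain. All 4 adult globins that passed the filter were called higher. The embryonic globins were at or near 0: Hba-x had no count in any library, and Hbb-bh1 and Hbb-y did not pass the filter. Ahsp, the alpha-globin chaperone, was not analysed here.

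The ratio of globin to Alas2 counts varied between libraries. There were 6.81 to 13.3 Hba-a1 counts per Alas2 count in the high set and 9.42 to 21.6 in the low set. Control 8 and D+1 IR 20 both had 21 and D+1 IR 2 had 21.6, whereas D-3 IR 15, in the middle of the order, had 6.03, the lowest of the 19. Since Alas2 both chose the sets and divides this ratio, nothing is read from the difference between them.

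Genes of the red cell membrane and its skeleton supplied 6 of the 14 called genes, out of 17 of that list that passed the filter. Of all genes, 0.494% were called higher. Slc4a1, the band 3 anion exchanger (chromosome 11, 102348824 to 102366203, minus strand), was at 53.7, 20.9, 13.4, 9.84, 9.52 and 10.0 CPM in the high set and at 2.96, 0.57, 1.10, 0.617, 0.608 and 0 CPM in the low set, in the order of Alas2. The difference was 4.75 (SE 0.92). D-3 IR 16 was far above the other high libraries, and D+1 IR 2 above the other low ones.

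Epb42, protein 4.2, which ties band 3 to the skeleton, ranged from 0.636 to 3.23 against 0 to 0.301 CPM (3.91, SE 0.64). Rhag, the Rh-associated glycoprotein, ranged from 0.216 to 0.600 against 0 to 0.0690 CPM (2.60, SE 0.30). These were low genes, and so was Kel, the Kell blood group protein, with 8 to 44 counts in each high library and 0 in all 6 low ones. At a floor of 3 counts per low library Kel was at least 6.71-fold higher in the high set. Kel overlaps Gm37527 on the same strand.

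The remaining membrane genes overlapped between the sets. Sptb, the erythroid beta-spectrin, differed by 1.29, Rhd by 1.77, Xk by 1.74, Ermap by 1.01, Epb41 by 0.85, Ank1 by 0.64 and the water channel Aqp1 by 0.28. Dmtn was at -0.95, Tmod1 at -0.26 and Gypc at -0.17. Add2, beta-adducin, which neurons also make, was at -3.01, with 0.432 to 21.9 CPM in the high and 0.100 to 104 CPM in the low libraries. Cldn13 and Icam4 did not pass the filter. The sum of the list was 573 to 806 CPM against 306 to 1135 CPM and overlapped, unlike its 6 called members.

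Among red cell enzymes and genes of late maturation, 4 of 18 were called higher, beside 0.494% of all genes. Bpgm, which makes 2,3-bisphosphoglycerate and so lowers the oxygen affinity of haemoglobin, was at 230.4, 150.0, 114, 103, 96.8 and 112 CPM in the high set and at 57.1, 35.0, 29.8, 33.1, 21.1 and 33.8 CPM in the low set (1.93, SE 0.27). Tent5c, a non-canonical poly(A) polymerase, was at 34.1 to 91.3 CPM (median 47.6) against 7.38 to 23.8 CPM (median 16.6), a difference of 1.79 (SE 0.36). Both genes kept a sizeable level in the low set, with ratios of means of 3.84 and 3.30, against 20.0 for Slc4a1. Trim10, a RING finger protein of erythroblasts, was at 2.55 to 14.0 against 0.0440 to 0.603 CPM (4.81, SE 0.58). Tspo2, an erythroid relative of the translocator protein, was at 0.702 to 3.10 against 0 to 0.237 CPM (3.61, SE 0.52).

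Trim58, a ubiquitin ligase of late erythroblasts, differed by 2.42 but overlapped (0.306 to 1.23 against 0 to 0.308 CPM). Car2, carbonic anhydrase 2, differed by 1.60, Ube2l6 by 1.19, Mkrn1 by 0.79, March8 by 0.29 and Bnip3l by 0.08, all with overlap. Negative differences were found for Rundc3a (-2.77), Ypel4 (-0.97), Fbxo7 (-0.52), Car1 (-0.47), Prdx2 (-0.26), Xpo7 (-0.13) and Blvrb (-0.12). Most of these genes are also made outside red cells. Rundc3a, which like Add2 is made in neurons, had a median of 3.22 CPM in the high set and 42.0 CPM in the low set.

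The 12 other genes of heme synthesis had a median difference of -0.39, and 3 of them a positive one. None was called, beside 0.494% of all genes, from which nothing can be read for 12 genes. Slc25a37, mitoferrin-1, which carries iron into mitochondria, came nearest, with 18.1 to 44.8 CPM against 9.06 to 22.1 CPM (1.15, SE 0.25), so that the sets overlapped. Its rho with Alas2 (Spearman's rank correlation) was 0.825 over 19 libraries and 0.393 over the 7 between the sets. It also overlaps other annotated genes. Alad, the next enzyme after Alas2, was at 14.4 to 37.7 CPM in the high and 19.9 to 73.0 CPM in the low libraries (-0.60, SE 0.37). Fech, which inserts the iron, was at 0.32, and Cpox at 0.12. Uros (-0.42), Glrx5 (-0.41), Urod (-0.39), Abcb10 (-0.39), Tmem14c (-0.38), Slc25a38 (-0.02) and Ppox (-0.02) also overlapped between the sets. Most of these genes serve heme synthesis in many cell types.

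The 7 regulators of erythroblasts that passed had a median difference of -0.07. None was called, which is also what a share of 0.494% gives for 7 genes. Gata1, which drives the erythroid programme, was at 0.136 to 0.80 CPM against 0 to 0.38 CPM (0.94), Nfe2 differed by 0.91, and Hemgn by 1.96 with no count in control 5. Klf1 and Gfi1b did not pass the filter, and Klf1 reached at most 0.636 CPM in any high library. Tal1 (-0.35), Lmo2 (-0.30), Zfpm1 (-0.53) and Ldb1 (-0.07) are also made in endothelium or more widely. The 5 genes of iron uptake and erythropoietin sensing had negative differences and were not called, with Tfrc, the transferrin receptor, at -0.20, Epor at -0.59, Tfr2 at -1.23, Steap3 at -0.13 and Slc11a2 at -0.08.

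The 7 libraries between the sets took no part in calling genes higher or lower. In them the 14 called erythroid genes still tended to rise with Alas2, but less closely than over all 19 libraries (median rho 0.936). Spearman's rho with Alas2 over these 7 was positive for all 14, from 0.267 for Rhag to 0.893 for Tent5c (median 0.643), and at least 0.5 for 12 of them (85.7%). Slc4a1 had 0.857, Bpgm 0.75, Hba-a1 0.679 and Hbb-bs 0.607. For the 73 other genes called higher, rho ran from -0.893 to 0.857 (median -0.036), and 17 (23.3%) reached 0.5, beside 17.1% of all genes. These coefficients are descriptions over 7 libraries that share a tissue and a depth scale. The D-3 IR libraries among them all had more Alas2 than the D+1 IR libraries among them. Alas2 level and irradiation schedule thus cannot be fully told apart here either.

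**Figure D2:**
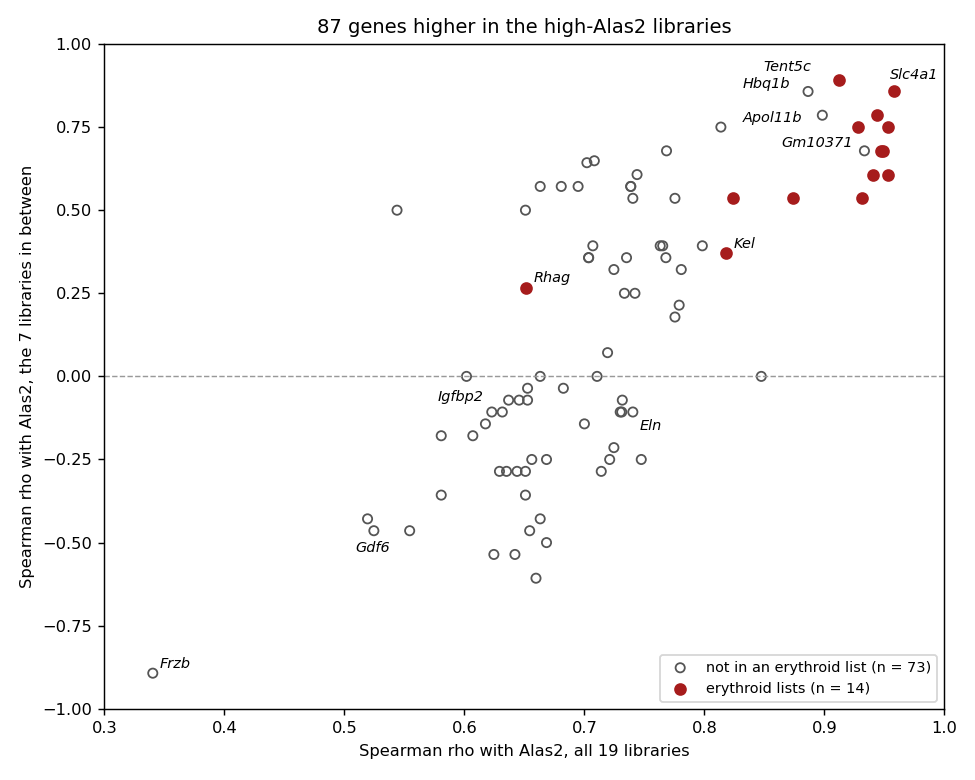
Spearman's rho of each of the 87 genes called higher with Alas2, over all 19 libraries (x axis) and over the 7 libraries in between (y axis), filled points for the 14 erythroid genes and open points for the 73 others. All 14 erythroid points lie above 0 on the y axis, whereas the median of the others is -0.036.

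Within each irradiated group rho was mostly positive. Over the 7 D-3 IR libraries rho of the 14 erythroid genes was 0.25 to 0.964 (median 0.875), and over the 7 D+1 IR libraries -0.371 to 0.857 (median 0.661). The 73 other genes had medians of 0.321 and 0.214. For the sum of all erythroid genes rho was 0.893 in D-3 IR, 0.75 in D+1 IR, 0.962 over the 16 libraries that share a number in their file names and 0.937 over all 19 (Pearson's r on the log2 scale 0.904, and 0.87 without D-3 IR 16 and control 6, the libraries farthest from the median Alas2 level). Globins took 10016 of the 12796 CPM of this sum in D-3 IR 16 and 87.3 of 2226 CPM in control 8. Over all 19, rho was 0.949 for the globin sum and 0.575 for red cell enzymes and maturation. It was 0.214 for membrane genes, -0.165 for heme synthesis, -0.311 for iron uptake and -0.486 for the regulators. The median rho of the 63 single genes was 0.233.

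Outside the erythroid lists, 73 genes were called higher, 72 of them in no list examined. Gm10371, annotated as antisense to Samd4 on chromosome 14 (47097679 to 47116161, minus strand), had the order most like that of Alas2 over the 19 libraries (rho 0.933). It was at 3.43, 2.54, 1.87, 1.94, 1.61 and 1.35 CPM in the high set and at 0.703, 0.355, 0, 0.110, 0.152 and 0.123 CPM in the low set (3.38, SE 0.60). It shares its place with Samd4 on the other strand, and the strand columns of the files divide counts about equally, so counts from the 2 genes cannot be told apart. Apol11b, an apolipoprotein L gene on chromosome 15 (77633946 to 77643286, minus strand), was at 2.39 to 16.8 CPM against 0.185 to 0.904 CPM (3.60, SE 0.51, rho 0.898 over 19 and 0.786 over the 7 in between). Gm10371 and Apol11b were picked by rho over all 19 libraries, so their rho over the 7 in between is not independent of the choice. Both windows printed above hold 2 GATA motifs.

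The theta-globin genes Hbq1b and Hbq1a, neighbours of the alpha-globins on chromosome 11 and in none of the erythroid lists, also ranked among the 10 most alike. Hbq1b was at 0.344 to 1.27 CPM against 0 to 0.151 CPM (rho 0.886, and 0.857 over the 7 in between), and Hbq1a at 0.108 to 0.636 against 0 to 0.0828 CPM (rho 0.814, and 0.75). Neither is printed above, since no searched motif lies in their windows. By contrast Gm49329 had 0.847 over 19 and 0 over the 7, Mfge8, a secreted glycoprotein that smooth muscle makes, 0.779 and 0.214, and Nes, nestin, 0.798 and 0.393. Arhgef7 (0.814 and 0.321) did not overlap, at 121 to 197 CPM against 71.1 to 118 CPM, but its ratio of means was 1.63 and it was not called. Gm3716 (0.781) and Ccdc9b (0.775) completed the 10. All 10 were ranked by rho over the 19 libraries, which include the 7 in between. Their rho over the 7 is thus no separate check.

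The largest positive differences beyond these belonged to other kinds of gene. Eln, elastin of the elastic lamellae, was at 27962, 49263, 18012, 25668, 47941 and 37173 CPM in the high set and at 2187, 14531, 444, 3754, 6266 and 6866 CPM in the low set (3.15, SE 0.75). Its rho was 0.740 over 19 libraries but -0.107 over the 7 in between, so that it separated the outer sets without following Alas2 in the middle. Igfbp2, an insulin-like growth factor binding protein, was at 180.3 to 474 against 18.3 to 94.9 CPM (2.75, SE 0.42), Vtcn1 differed by 3.15, Cldn3, a tight junction protein, by 2.73 and Gdf6, a bone morphogenetic protein ligand, by 2.68. Their rho over the 7 was -0.107, 0, -0.107 and -0.464. Eln overlaps Gm30003, and Cldn3 overlaps Wbscr25.

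Of the 24 genes called lower, 14 had a mean of at least 1 CPM. Slc1a1, a glutamate transporter, was at 0.170 to 1.32 CPM in the high and 1.46 to 5.78 CPM in the low set (-2.40, SE 0.48), and Nova1, a neuronal splicing factor, at 0.801 to 4.29 against 5.31 to 9.63 CPM (-1.56, SE 0.39). Ass1 (-1.46), the argininosuccinate synthase, and Got1 (-1.21), an aspartate aminotransferase, were among the more abundant, with medians of 7.5 and 16.6 CPM against 20.8 and 44.6 CPM. Rhof (-1.51), Nol3 (-1.45), Prr16 (-1.38), Cpa3 (-1.36), Katnal2 (-1.25), Acot1 (-1.14), 9330162G02Rik (-1.10), Icosl (-1.07), a costimulatory ligand, and Hoxc5 (-1.06) were also called. Over the 7 libraries in between, the 24 had a median rho of 0.018.

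White cell genes had a median difference of -0.46, with 31 positive and 117 negative. Of 159 genes in 11 lists, 148 passed the filter, 0 were called higher and 1 lower, which is near the 0.494% and 0.136% of all genes and is read as no result. Their sum was 1253 to 5926 CPM (median 2702) in the high set and 1768 to 13654 CPM (median 3987) in the low set, and its rho with Alas2 was -0.286 over 19 libraries (r -0.234 on the log2 scale, -0.0782 without D-3 IR 16 and control 6). Within D-3 IR it was -0.357 and within D+1 IR -0.107. The sums of the sets overlapped.

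**Figure D3:**
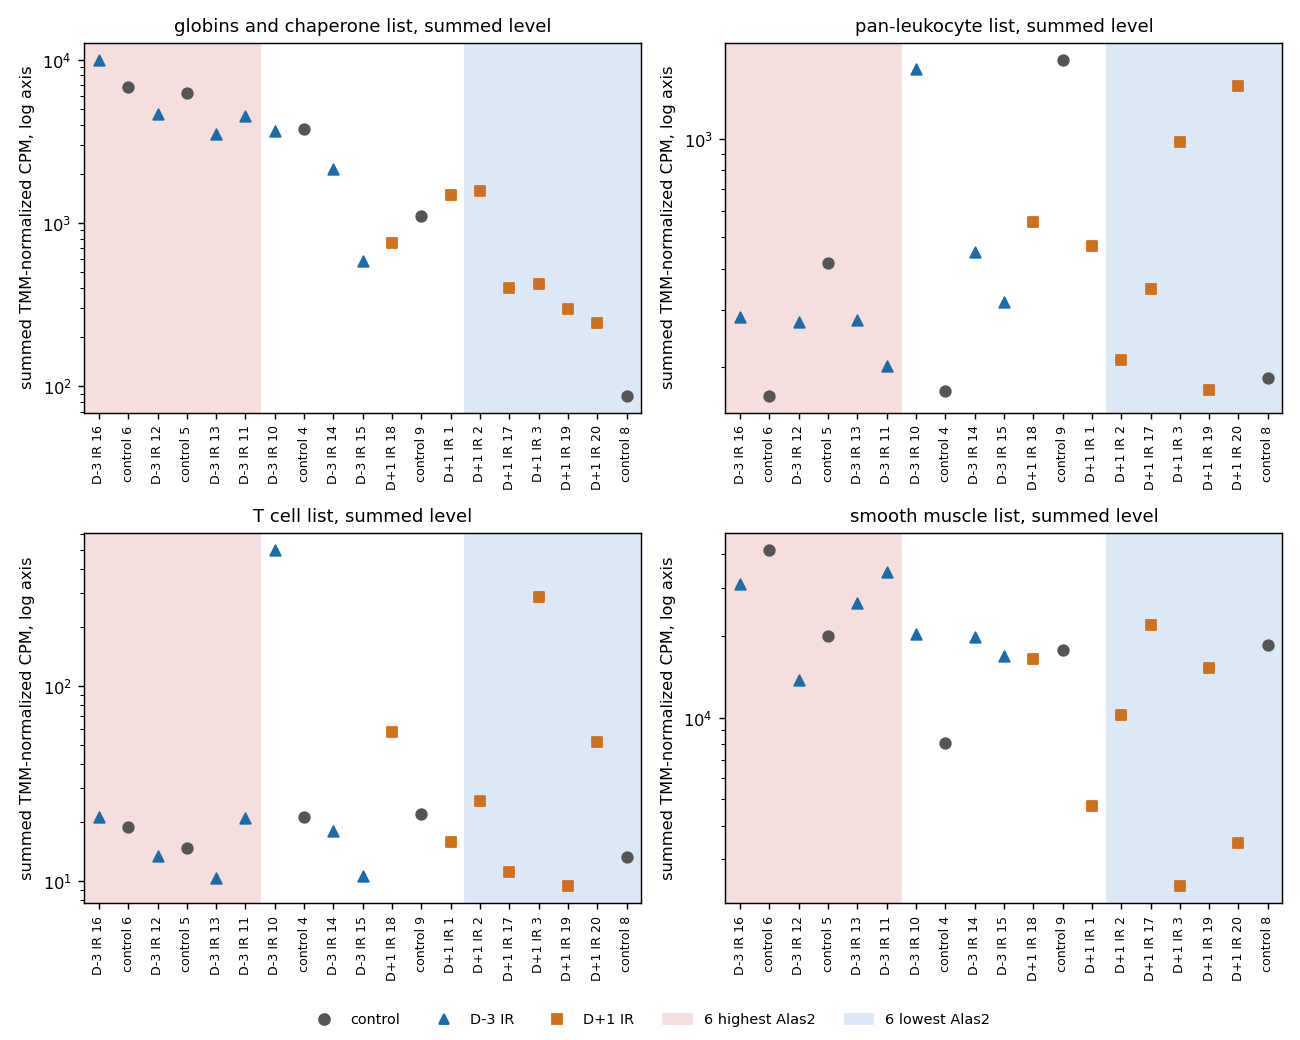
Summed level (TMM-normalised CPM, log axis) of the globin, pan-leukocyte, T cell and smooth muscle lists in each of the 19 libraries, 1 point per library, ordered from the highest to the lowest Alas2 CPM, with colour and shape by study group and shading for the high and low sets. The globin sum falls from 10016 CPM in D-3 IR 16 to 87.3 CPM in control 8, whereas the T cell sum does not fall and is highest in D-3 IR 10 (499.5 CPM) and D+1 IR 3 (287 CPM).

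A pair of low libraries stood apart in white cell genes. D+1 IR 3 had a T cell sum of 287 CPM and a B cell sum of 860 CPM, and D+1 IR 20 a macrophage sum of 4765 CPM. These 2 had the highest white cell sums of the low set and were picked for that, so leaving them out raises the white cell difference by construction. Without them the low set held white cell sums of 1768 to 4677 CPM (median 2698), and the median difference over the 148 genes was 0.32. Slc4a1 then differed by 5.03 and Hbb-bs by 4.00, although the median of the whole erythroid list was 0.06. The values without both libraries in the paragraphs that follow are of the same kind.

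Pan-leukocyte genes had a median of -0.50, with 0 of 16 positive, and sums of 163 to 418 against 169 to 1451 CPM. Ptprc, which encodes the CD45 antigen of all white cells, was at 17.5, 10.7, 16.4, 21.1, 17.8 and 12.3 CPM in the high set and at 10.5, 17.0, 87.3, 9.01, 59.3 and 8.07 CPM in the low set in the order of Alas2. The 87.3 and 59.3 CPM belonged to D+1 IR 3 and D+1 IR 20, and the other 4 low libraries lay within or just below the high set. Coro1a (-0.90), Cd37 (-0.69), Laptm5 (-0.67) and Was (-0.61) had the largest differences of the list. Without both libraries the median was 0.31. Ptprc, and Cd3e below, were chosen as defining markers after their values were seen.

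T cell genes had a median of -0.85, with 0 of 21 positive, and the sums were 10.3 to 21.1 CPM in the high set and 9.36 to 287 CPM in the low set. Trbc1 (-1.60), Cd3d (-1.34), Cd3g (-1.20) and Zap70 (-1.10), genes of the T cell receptor and its signal, led the list. Cd3e was between 0.0764 and 0.667 CPM in the high set, and between 0.154 and 1.73 CPM in the low set except for 11.1 CPM in D+1 IR 3. Without D+1 IR 3 and 20 the median was 0.18. B cell genes had a median of -0.35 (3 of 17 positive), with Cr2 at -1.13, and sums of 20.4 to 59.0 against 8.39 to 860 CPM. Their median was 0.60 without D+1 IR 3, 1.18 without both libraries and 1.70 with the study group as a term in a linear fit.

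With the study group as a term, where the sets are compared within groups and the value rests on controls 5, 6 and 8, the median was 3.28 for mature neutrophil, 3.29 for granule precursor, 1.54 for monocyte and 0.70 for pan-leukocyte genes, against the pooled values given here. Mature neutrophil genes had a median of -0.18 (6 of 13 positive), with Slfn4 at 1.33, Retnlg at 1.12, Trem1 at 1.08 and G0s2 at -0.95. In D+1 IR 2, G0s2 alone took 365 of the 378 CPM of the list, with S100a8 at 2.71 CPM. Plin1 of the white adipocyte list was at 1222.5 CPM there. In control 6, G0s2 was at 11.2 and Plin1 at 21.2 CPM, so the G0s2 difference is not read as one of neutrophils. Genes of neutrophil granule precursors, which marrow makes beside erythroblasts, had a median of 0.66 (6 of 9 positive). None was called, beside 0.494% of all genes called higher. Ngp was at 1.93, 3.82, 2.40, 12.9, 0.611 and 1.57 CPM in the high set and at 2.54, 0.142, 2.24, 1.45, 0.122 and 0.0616 CPM in the low set (2.19, SE 1.05), Camp differed by 1.74 and Ltf by 1.24, and Prtn3 by -1.33. Control 5 had the highest Ngp level and the ranges overlapped. The median of the precursor list was 1.07 without D+1 IR 3 and 20, whereas the sum of the list had a rho of -0.00526 with Alas2.

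Monocyte genes had a median of -0.20 (3 of 10 positive), with Hp, haptoglobin, which hepatocytes and fat also make, at -1.28, Treml4 at 0.69 and Ly6c2 at -0.58. Macrophage genes had a median of -0.50 (3 of 16 positive), with Cd14 at -0.81, Mertk at 0.80, Lyve1 at -0.67 and C1qc at -0.61. Their sum was 443 to 1433 CPM in the high set and 696 to 4765 CPM in the low set. Without D+1 IR 3 and 20 the low macrophage sums were 696 to 804 CPM, and the medians were 0.04 for macrophage, 0.87 for monocyte and 0.99 for mature neutrophil genes. Spleen and marrow macrophages take up old red cells. The 13 genes of heme and iron recycling had a median of -0.34, with Trf at -1.11, Spic at -1.04 and Hmox1 at -0.82. None was called, beside 0.494% of all genes called higher and 0.136% lower.

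Natural killer genes had a median of -0.42 (Klrd1 -0.94, Klrk1 -0.93, Ncr1 -0.78, Klrg1 -0.64), plasma cell genes -0.23 (Igha -2.82, Jchain -1.69, Derl3 0.66, Sdc1 0.61) and dendritic cell and MHC class II genes -0.49 (Siglech -1.71, H2-DMb2 -1.0, Flt3 -0.82, H2-DMa -0.76). Epx, Mcpt8 and Ms4a3, defining markers of eosinophils, basophils and granule precursors, were near 0, with at most 0.0736, 0.554 and 0.151 CPM in any library.

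The mast cell, basophil and eosinophil list had a median of -1.36, the lowest of the 11 white cell lists with the filter on low counts. Without that filter it was -0.38, and the T cell list was lower, at -0.85. In it, 7 of the 9 genes that passed had a negative difference, and the 1 called white cell gene, Cpa3, the mast cell carboxypeptidase, belonged to it. Cpa3 was at 3.43, 1.02, 3.39, 2.36, 3.48 and 0.567 CPM in the high set and at 3.52, 5.00, 6.87, 5.95, 3.77 and 6.53 CPM in the low set, with a gap between 3.48 and 3.52 CPM. Tpsb2, a tryptase, differed by -1.84, Mcpt4 by -1.63, Fcer1a by -1.57 and Cma1, a chymase, by -1.39, each with overlap. The list median kept its sign when single libraries were left out (-1.52 to -1.01) and was -1.12 without D+1 IR 3 and 20. The sum had a rho of -0.563 with Alas2 over 19 libraries and -0.786 over D+1 IR, but 0.393 over D-3 IR. Kit alone took 38.3 of the 63.3 CPM of this sum in D-3 IR 16. Cpa3 by itself had a rho of -0.643 over D-3 IR and -0.107 over D+1 IR, so the sum does not stand for Cpa3.

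Platelets also come with blood. The 13 platelet and megakaryocyte genes had a median of 0.44, 9 were positive and 0 called. Beside 0.494% of all genes called higher and 0.136% lower, nothing is read from that 0. Treml1 (1.84), Gp9 (1.71) and Gp5 (1.69) had their highest values among the 12 libraries in D-3 IR 16, where Treml1 reached 10.2 CPM against a high set median of 0.270. Control 9, between the sets, had 11.5 CPM. Without D-3 IR 16 the median of the list was -0.19. Itgb3, which smooth muscle and endothelium also make, was at 99.0 to 265 against 15.7 to 137 CPM (1.68).

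**Figure D4:**
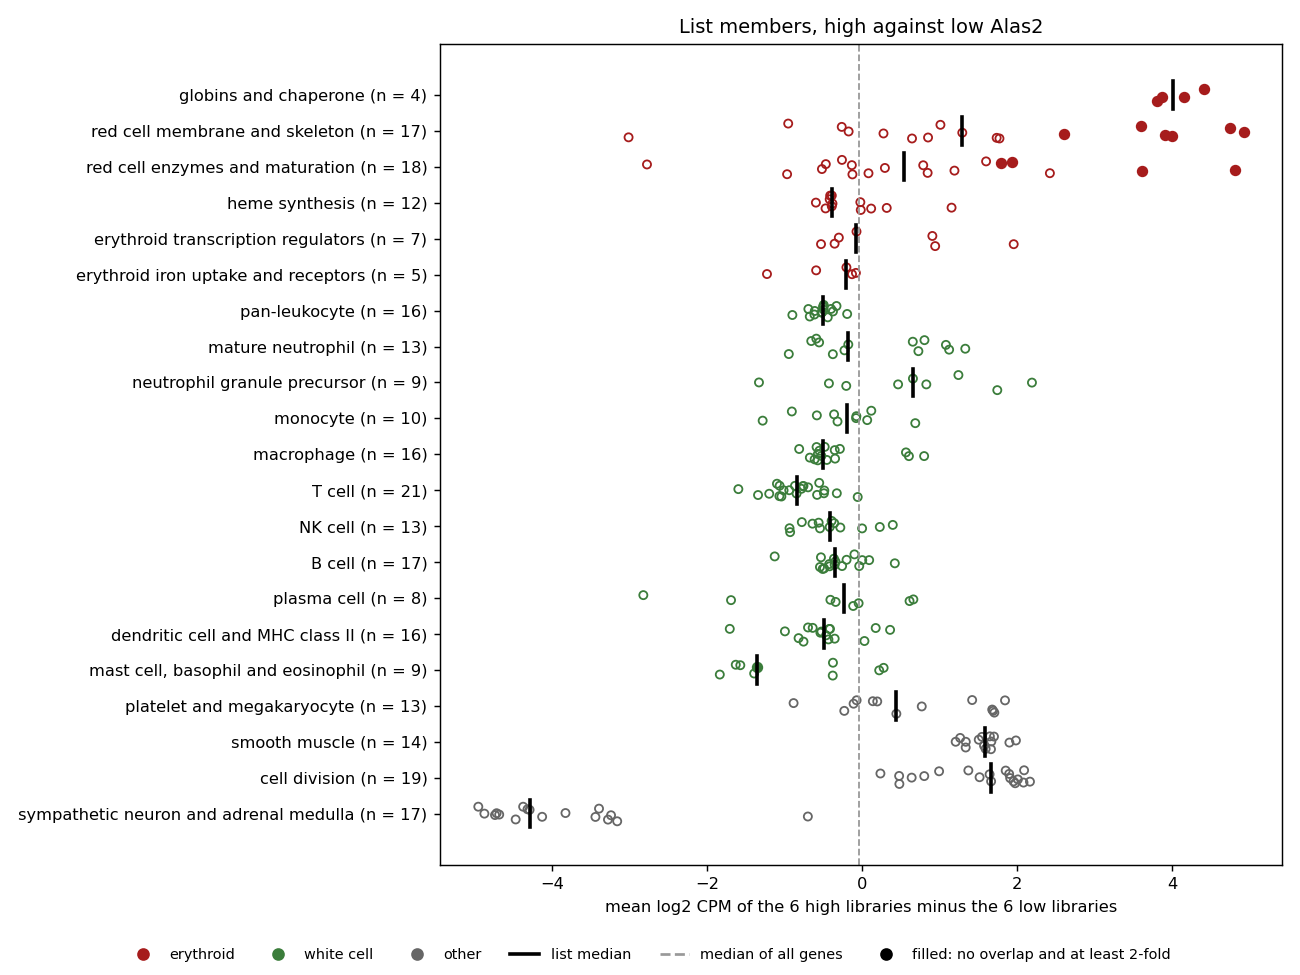
Difference between the high and the low set (mean log2 CPM, high minus low) of each gene that passed the filter, by list, with the median of each list marked. Globin genes sit between 3.80 and 4.41, whereas the T cell genes all lie below 0 and the smooth muscle genes all above 0.

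Genes of other tissues also differed in level between these libraries, and their part in the result was not tested. Of all genes 0.494% were called higher and 0.136% lower, so 0 calls in a list of this size are not read as a result. All 14 smooth muscle genes had positive differences, with a median of 1.58 and 0 called. Myocd was at 1.98, Cnn1 at 1.90, Synpo2 at 1.70 and Myh11 at 1.67. Their sum was 13750 to 41493 CPM in the high set and 2386 to 21849 CPM in the low set, with a rho of 0.591 over 19 and 0.536 over the 7 in between. All 19 genes of cell division were likewise positive (median 1.66, 0 called), with Mki67 at 23.0 to 70.8 CPM against 3.70 to 53.8 CPM, but their sum had a rho of -0.107 over the 7 in between and -0.571 within D-3 IR. Casq1, calsequestrin of skeletal muscle, was the 1 called gene among the other lists, at 25.3 to 60.5 against 5.55 to 21.3 CPM (2.05, SE 0.34), whereas the skeletal muscle list had a median of -0.14.

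All 17 markers of sympathetic nerve cells and adrenal medulla that passed had negative differences, with a median of -4.29. None was called, beside 0.136% of all genes called lower. Dbh, the dopamine beta-hydroxylase, was at 0.108 to 355 CPM in the high and 0.0502 to 1547 CPM in the low set (-4.95, SE 2.75), and Th was at -4.87, Phox2a at -4.74 and Snap25 at -4.71. The sums spanned 124 to 2194 against 31.2 to 9515 CPM, and the lowest, 31.2 CPM, belonged to D+1 IR 2 of the low set. The sum had a rho with Alas2 of -0.428 over 19 libraries but 0.714 over the 7 in between. Thus it did not fall as Alas2 rose in the middle of the order. White adipocyte genes (0 of 11 positive, median -0.88, with Retn at -1.06, Lipe at -0.99, Cidec -0.99, Plin1 -0.96) and brown adipocyte genes (median -0.86) had negative medians. The 3 adrenal cortex genes that passed had a median of -0.84. The sum of that list was 117 CPM in D+1 IR 3, beside medians of 4.06 CPM in the high and 4.81 CPM in the low set. Schwann cell genes had a median of -0.46, liver genes -0.46, endothelial genes -0.06 (Erg 1.02) and fibroblast genes 0.21 (Mfap5 1.49, Col3a1 1.25). Aqp2, the single kidney gene that passed, was at 0.10.

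The study's own groups were not chosen on Alas2 and were tested with edgeR's quasi-likelihood test over 17617 genes, adjusted by Benjamini and Hochberg. The question was whether irradiation before or after the start of AngII changed these genes. No gene passed an adjusted p of 0.05 in any of the 3 comparisons (0% called), which share samples, among them the controls. At an unadjusted p under 0.05 there were 232 genes (1.32%) for D-3 IR against control, 1253 (7.11%) for D+1 IR against control and 2018 (11.5%) for D-3 IR against D+1 IR. DESeq2 called 0, 2 and 10 genes.

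Alas2 was at 121 ± 106 CPM in D-3 IR (SD, n = 7), 13.8 ± 8.49 CPM in D+1 IR (SD, n = 7) and 79.0 ± 69.6 CPM in control (SD, n = 5). Between D-3 IR and D+1 IR the fitted log2 difference was 3.13 (SE 0.75, unadjusted p = 0.000539, adjusted p = 0.409, edgeR), with no overlap between the libraries, and D+1 IR against control gave -2.51 (SE 0.77, adjusted p = 0.644, edgeR). D-3 IR against control gave 0.62 (SE 0.77, adjusted p = 1, edgeR). Over the alternatives run for D-3 IR against D+1 IR the adjusted p of Alas2 ran from 0.0075 with DESeq2 to 0.979 without D+1 IR 1, 2 and 3, where the difference was 3.42.

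Means of the genes that followed Alas2 were likewise highest in D-3 IR and lowest in D+1 IR. Slc4a1 was at 15.4 ± 17.2 CPM in D-3 IR, 1.44 ± 1.09 CPM in D+1 IR (SD, n = 7 each) and 8.11 ± 8.25 CPM in control (SD, n = 5), with 3.41 (SE 0.90, adjusted p = 0.409, edgeR) between the irradiated groups. Hbb-bs was at 1930.2 ± 1439, 310.5 ± 219.6 and 1769 ± 1527 CPM in the same order, with 2.64 (SE 0.75, adjusted p = 0.409, edgeR), and its adjusted p was 0.0421 with DESeq2. Differences between D-3 IR and D+1 IR were 1.54 for Tent5c and 1.44 for Bpgm, with adjusted p = 0.409 (edgeR) for each. The spread of Alas2, Slc4a1 and Hbb-bs within D-3 IR and control was large, with SDs close to the means.

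**Figure D5:**
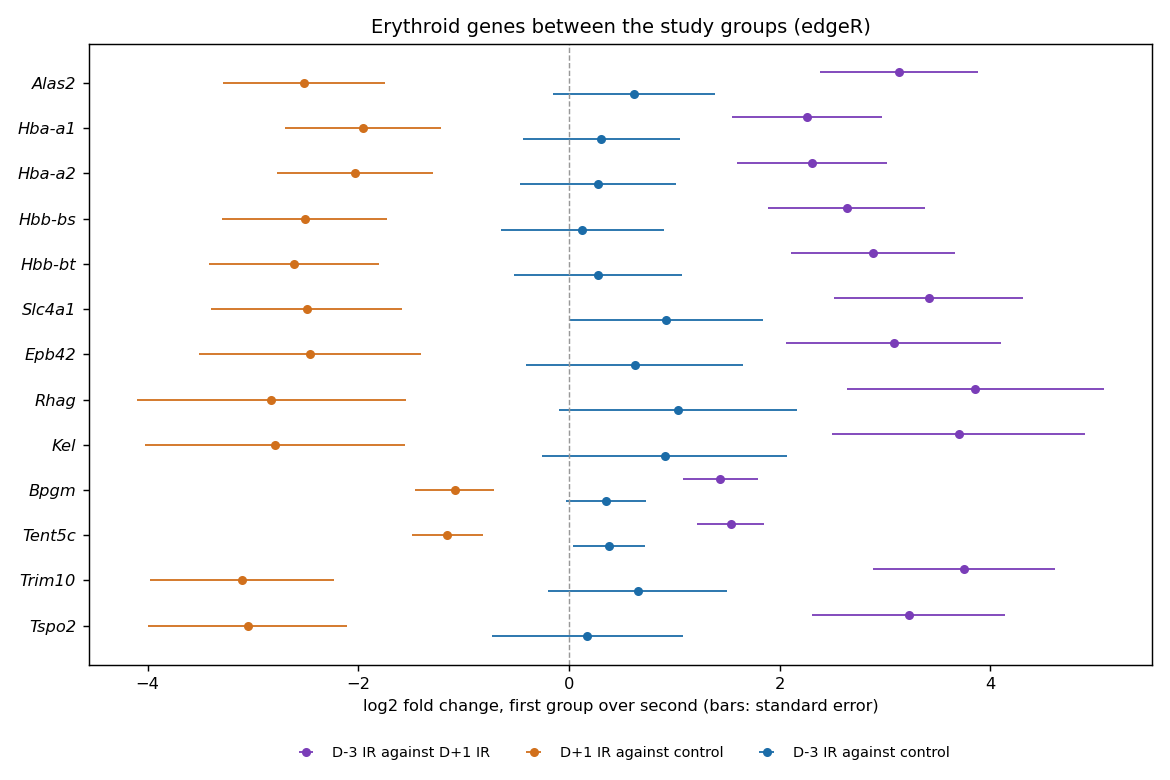
Log2 difference (points) with its SE (bars) of Alas2 and 12 of the called erythroid genes in the 3 comparisons of study groups, from the edgeR fit. Alas2 is at 3.13 for D-3 IR against D+1 IR, -2.51 for D+1 IR against control and 0.62 for D-3 IR against control, and no adjusted p passed 0.05.

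Of the 63 erythroid genes, 28 had an unadjusted p under 0.05 between D-3 IR and D+1 IR (edgeR), 35 were positive and the median was 0.16, beside 11.5% and a median of -0.04 over all genes. Without D-3 IR 10 it was 26 of 62. The 28 genes with such a p lay in both directions. They held all 4 globins, each positive, and 2 of the 5 iron uptake genes, a list with 0 positive. Among 148 white cell genes 1 had such a p, 72 were positive and the median was -0.03, but without D-3 IR 10 it was 47 of 142, with 12 positive and a median of -1.06. Against control, D+1 IR had 22 erythroid genes under 0.05 (median -0.21), beside 7.11% of all genes, and D-3 IR had 2 (median 0.09), beside 1.32%.

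White cell counts against control turned on single libraries. D+1 IR had 15 of 148 white cell genes under 0.05 (111 positive, median 0.78), beside 7.11% of all genes, and 41 of 142 without D-3 IR 10. D-3 IR had 30 (103 positive, median 0.50), beside 1.32%. Of these 30, 12 were mature neutrophil genes, a list with 0 of 13 positive and a median of -3.17, and without control 9, whose neutrophil sum was 2038 CPM, 0 of the 13 had such a p and the median was 0.64. T cell genes supplied 7 and natural killer genes 6, with medians of 2.37 and 2.32. Without D-3 IR 10, whose T cell sum was 499.5 CPM, these counts were 0 and 0 and the medians -0.13 and 0.86. The white cell count was 7 of 148 without control 9 and 18 of 142 without D-3 IR 10. Both libraries were picked after the data were seen, none of these genes passed the adjusted threshold, and both comparisons use the same 5 controls.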

How the data were processed

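RNA of 19 abdominal aortas was selected for poly(A) and made into libraries with a TruSeq stranded kit. According to the submitters' processing notes, reads were checked with FastQC and aligned to GRCm38 with STAR 2.7.9a. The authors deposited raw read counts per gene from STAR for each library and a joined table, and all 773262 of its values equalled those of the single files. The annotation release is not given in the sources used here. The unstranded column was used, since the stranded columns divided the counts about equally. Of 55414 gene identifiers, 52081 were given a symbol from GENCODE M21.

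Groups were taken from the sample labels. Genes were filtered by edgeR's filterByExpr (17617 kept). Log2 CPM used TMM factors and a prior count of 2. Study groups were compared with edgeR 4.0.16 (limma 3.58.1, R 4.3.3; 3 groups in 1 quasi-likelihood fit, two-sided, Benjamini-Hochberg over all genes), and with DESeq2 1.42.0 as an alternative, and the scripts were tested on simulated data. Libraries came from separate mice. Depth limits genes with few counts, such as Kel.

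The libraries and the 31 gene lists were chosen with earlier results of these data known. Named were all erythroid list members, up to 4 members of each other list by size of the difference, up to 15 called genes in each direction with a mean of at least 1 CPM, the 10 genes most like Alas2 outside the erythroid lists, and defining markers near 0. The alternatives changed the scaling, the filter, the prior count, the size of the sets, the ranking value and the libraries used. Some genes that this rule would name are counted but not reported here.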

Additional observations from a re-analysis of the deposited data

Results flagged for a closer look

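In groups of 5 to 7 libraries, the highest library stood apart from the rest by Dixon's criterion in 25 of 78 groups examined. The criterion flags about 1 in 20 groups of independent, normally distributed values. These levels were examined as CPM without a log scale, the groups share libraries, and Hbb-bs is part of the erythroid sum. The count is therefore not compared with that rate. Alas2 was not examined within the sets chosen on it, whereas Slc4a1, Hbb-bs and the erythroid sum, which follow it, were. D-3 IR 16 stood apart for Alas2 (336.9 CPM), Slc4a1 (53.7 CPM), Hbb-bs (4817 CPM) and the erythroid sum (12796 CPM), within D-3 IR, and for Slc4a1 also within the high set. Within the low set D+1 IR 2 stood apart for Slc4a1 (2.96 CPM), Hbb-bs (642 CPM) and the erythroid sum (4718 CPM). It carries another file name number than the low libraries apart from D+1 IR 3, and the part of this was not tested.

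D-3 IR 10, a library between the sets, had pan-leukocyte (1641 CPM), T cell (499.5 CPM), natural killer (81.0 CPM), B cell (1172 CPM), plasma cell (172 CPM) and dendritic cell and MHC class II sums (3245 CPM) far above the other D-3 IR libraries. D+1 IR 3 stood apart for T cell (287 CPM) and B cell sums (860.3 CPM), within its group and within the low set, and D+1 IR 20 for the macrophage sum (4765 CPM). Control 9 stood apart from the other controls for pan-leukocyte (1750.2 CPM) and mature neutrophil sums (2038 CPM). Control 5 stood apart in the high set for granule precursor (74.1 CPM) and monocyte sums (2752 CPM), and D-3 IR 14 in its group for the monocyte sum (2489 CPM). Hp alone, which hepatocytes and fat also make, was at 2673 CPM in control 5 and 2385 CPM in D-3 IR 14. These monocyte sums were thus largely a single gene that is not specific to monocytes.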

How the results depend on the processing

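The counts of genes without overlap changed with the libraries used, and a set of fewer libraries overlaps less often by construction. Against 87 higher and 24 lower, 7 libraries on each side gave 50 and 10, and 5 on each side gave 45 lower. A mean of at least 1 CPM left 14 lower and an erythroid median of -0.022. Leaving out D+1 IR 2 and 3 as libraries of the other file name number gave 49 lower, and leaving out D+1 IR 3 and 20 together, chosen after seeing the data, gave 289 and 71. Leaving out single libraries gave 83 (without D+1 IR 3) to 277 (without D+1 IR 20) higher and 22 to 190 lower. Higher counts also rose to 241 without D-3 IR 12 and 208 without D+1 IR 17, and lower counts to 67 without D+1 IR 20, 40 without control 5, 42 without D+1 IR 2, 50 without D+1 IR 19 and 190 without D-3 IR 12. The erythroid median then ran from 0.10 to 0.31 and the white cell median from -0.69 to -0.09. With the study group as a term, which rests on controls 5, 6 and 8, the white cell median was 0.62. Without TMM the median of all genes moved from -0.04 to -0.15. DESeq2 called 2 genes for D+1 IR against control and 10 for D-3 IR against D+1 IR, where edgeR called 0. Hbb-bs in D-3 IR against control changed sign without control 8 (-0.19), control 9 (-0.11) or D-3 IR 16 (-0.29) and reached 0.54 without control 6. Causes were not tested. No paired analysis was possible because replicate numbers run on across the groups and none is shared.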

Other observations

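The balance of beta-globin to alpha-globin messages differed between libraries. Hbb-bs counts per Hba-a1 count ran from 0.921 in D-3 IR 15 to 2.44 in control 6. Both belong to pairs of near-identical copies, and how reads were divided within a pair was not tested. Slc4a1 counts per 100 Alas2 counts ran from 0 in control 8 to 18.0.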
